A study of Mus musculus with 32 samples.

Results

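The T cell receptor alpha chains of invariant natural killer T (NKT) cells and mucosal-associated invariant T (MAIT) cells were followed in donor T cells before and after transplantation. A read counted as an NKT chain when its V gene was TRAV11 and its J gene TRAJ18, and as a MAIT chain when they were TRAV1 and TRAJ33. With Zbtb16, these segments make 5 members, set against an RNA table of 16741 genes. Across the 31 libraries 1965 alpha chain (TRA) reads were NKT chains and 783 were MAIT chains.

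Most T cell receptors are assembled from many V and J segments and recognise peptides, but NKT and MAIT cells carry alpha chains that are nearly the same in every cell and every animal. The NKT chain recognises lipids presented by CD1d and the MAIT chain recognises vitamin B metabolites presented by MR1. Both cell types depend on PLZF, the zinc finger transcription factor encoded by Zbtb16, which gives them their rapid, innate-like cytokine responses. In graft-versus-host disease, donor T cells attack the recipient, and NKT cells are known as regulators of that attack.

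Conventional CD4 and CD8 T cells of C57Bl6 donor mice, and their regulatory T cells (Treg), were sorted and profiled by bulk RNA sequencing and receptor sequencing. They were taken before transplantation (day 0), or from spleen and lymph nodes of Balb/c recipients, which differ from the donors at the major histocompatibility locus. Those recipients were either untreated with Treg (allogeneic) or given donor Treg on day 0 (Treg-treated), and syngeneic recipients served as controls. CD4 and CD8 cells each had 2 libraries at day 0, 4 allogeneic, 4 Treg-treated and 3 syngeneic, and Treg had 2 at day 0 and 3 from Treg-treated recipients. Sample titles and the receptor table give day 6, whereas the design text gives day 8, and the titles are followed here. Libraries are named by the prefix JL019 or JL027, which the receptor table lists as the experiment, and by a replicate number. No label says how many animals gave each library, so p-values measure the spread between these samples only.

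TRA depth ran from 6870 to 39867 reads per library, and the RNA values have been scaled between libraries, so their depth is unknown. Cd4 was between 8722 and 21481 in all CD4 libraries except the syngeneic library JL019-2, where it was 1659 beside a Cd8a value of 1956. That library also had a summed value of 877629 over 7 myeloid marker genes, against 18839 and 27735 in the other CD4 syngeneic libraries and at most 16033 in every other group. The main CD4 syngeneic results are also given without it, a choice made after seeing the data. That does not remove the myeloid genes from the group: 6 of 7 rose from CD4 day 0 to CD4 syngeneic (9.90% of all genes did), and 4 of 7 without JL019-2 (6.48% of all genes, median log2 change 2.80), among them Cd14 (5.60) and Lyz2 (4.55). Their part in the CD4 syngeneic results was not tested. In the Treg libraries at day 0 the Treg genes Ikzf2 and Il2ra lay above all CD4 day 0 libraries, but Foxp3, the factor that defines the lineage, was 198 and 442 against 978 and 1145 in CD4 cells at day 0.

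Before transplantation the NKT chain was one of the most frequent alpha chains of the CD4 cells, and by day 6 it was rare in 10 of 11 CD4 libraries. It made up 638 of 18145 TRA reads (3.52%, Wilson 95% interval 3.26 to 3.79%) in the JL019 donor cells. In the JL027 donor cells it was 710 of 20617 reads (3.44%, 3.20 to 3.70%), which gives a mean of 3.48% ± 0.0512 (SD, n = 2). Among all V and J pairs it held rank 2, of 781 pairs in JL019 and of 821 in JL027. The reads come from nested PCR without molecular identifiers, so intervals and limits for 0 reads (3 reads) cover counting error only.

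In the 4 CD4 allogeneic libraries 5, 1, 0 and 0 reads were NKT chains, which is 0.0240% and 0.00606% in the JL019 libraries. The 2 libraries without a read allow a share of up to 0.0174% and 0.0221%. Pooled over the group this was 6 of 68227 reads (0.00879%), 5 of them from JL019-1, against a pooled 3.48% at day 0. In CD4 cells of Treg-treated recipients the counts were 3, 2, 2 and 0 reads, or 0.0240%, 0.0109%, 0.00802% and 0% (limit 0.0157%), 371-fold below day 0 when pooled. Every one of these 8 libraries was below both donor libraries by a wide margin.

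Syngeneic recipients were not uniform. The CD4 shares were 0.0277% (7 reads) in JL019-1, 0.0924% (20 reads) in JL027 and 2.03% (295 of 14560 reads, 1.81 to 2.27%) in JL019-2, the library with the low Cd4 value and the high myeloid genes. The first 2 were far below day 0, while JL019-2 was closer to the donor level, though below it, and the pair held rank 3 of its 692 V and J pairs. Of its 29 NKT sequences 16 were among the 61 of the JL019 donor cells and 17 among the 49 of the JL027 donor cells. Sequencing or PCR errors in a frequent shared sequence can make the same neighbours in several libraries, and their part in this overlap was not tested. Of the 3747 alpha clonotypes of JL019-2, 12.5% and 13.5% were also found in these donor libraries (6.59% and 6.13% of the donors' clonotypes). The CD4 syngeneic library JL019-1 shared 737 and 815 of its 6720 clonotypes with them (10.4% and 9.91% of the donors'), and JL027 shared 287 and 341 of its 3432 (4.05% and 4.15% of the donors').

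Over all 11 CD4 libraries of day 6 the share differed from day 0 by -3.28 percentage points on average and the groups did not overlap. The two-sided exact permutation test gave p = 0.0256, the smallest that 2 against 11 libraries allow, and 0.229 after Benjamini-Hochberg adjustment over the 20 share tests. The drop was seen under both prefixes: 3.52% against 0.00606 to 2.03% (median 0.0240%, n = 6) in JL019, and 3.44% against 0 to 0.0924% (n = 5) in JL027. Without the syngeneic library JL019-2 the difference was -3.46 points and the highest day 6 share was 0.0924%. In a bulk library fewer NKT cells, less receptor RNA per cell and more reads from other clones cannot be told apart. Counted by distinct clonotypes, the NKT share of CD4 libraries was 0.596 to 0.861% at day 0, 0 to 0.109% in allogeneic and 0 to 0.0650% in Treg-treated recipients. The syngeneic libraries held 0.0744%, 0.117% and, in JL019-2, 0.774% of clonotypes, so that by clonotypes day 6 overlapped the donor range through this library. All cells with the same chain count once here, and sequencing or PCR errors in a frequent chain can add clonotypes. The clonotype share is therefore not free of clone size.

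**Figure D1:**
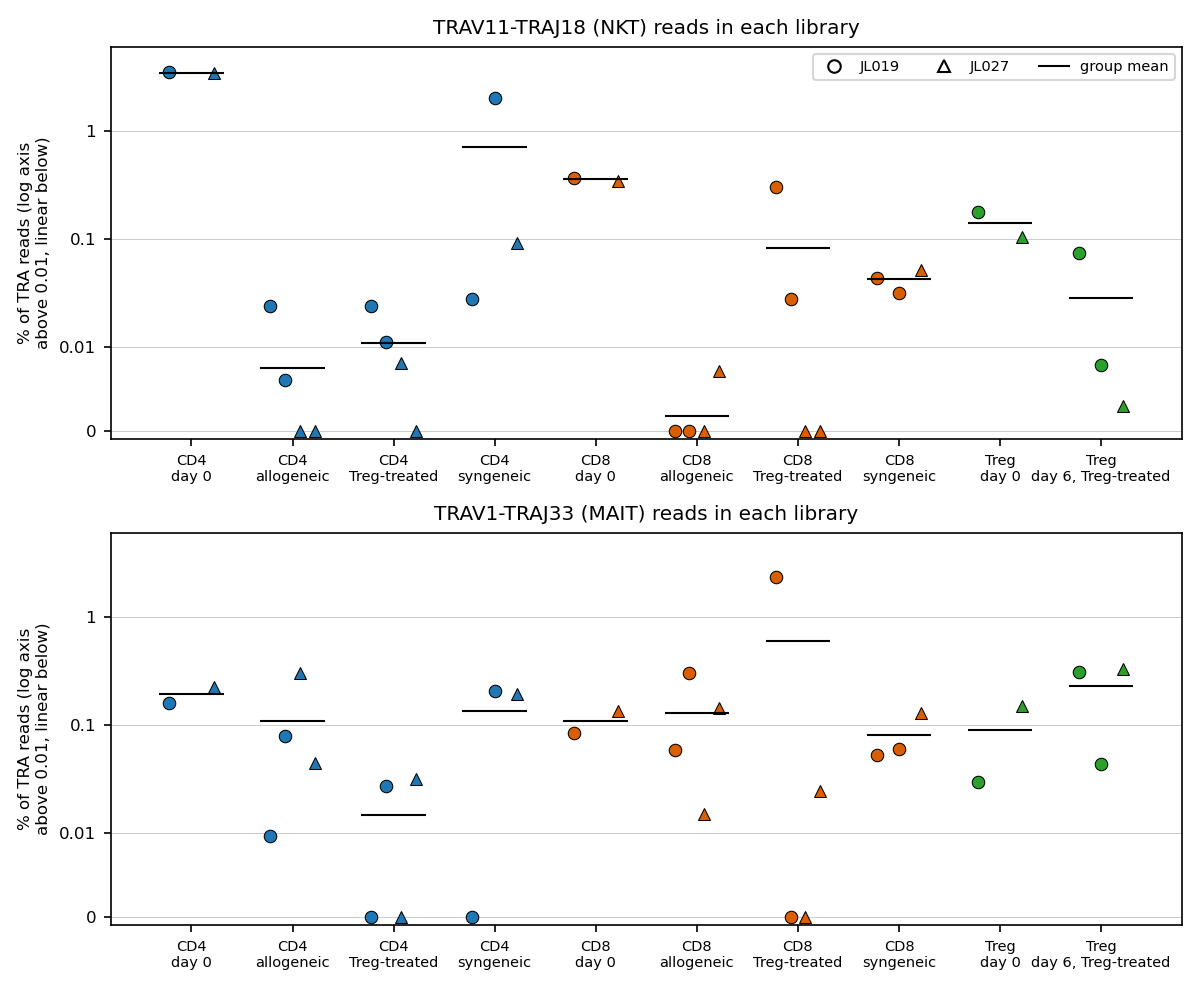
Share of TRA reads that are NKT chains (TRAV11 with TRAJ18, upper panel) and MAIT chains (TRAV1 with TRAJ33, lower panel) in percent, on an axis that is logarithmic above 0.01 and linear below, with 1 symbol per library (circles JL019, triangles JL027) and a line at each group mean. The 2 CD4 donor libraries stand at 3.52% and 3.44% NKT chains, and only the CD4 syngeneic library JL019-2, at 2.03%, comes near them on day 6.

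CD8 donor cells held a smaller share. The NKT chain made up 79 of 21577 reads (0.366%) and 78 of 22555 reads (0.346%), and ranked 55th of 772 and 61st of 784 pairs. The CD8 allogeneic libraries had 0, 0, 0 and 1 NKT reads, the last of 14101 (0.00709%), and the 3 libraries without one allow up to 0.0437%, 0.0285% and 0.0113%. The CD8 syngeneic libraries kept 0.0430%, 0.0316% and 0.0517%. Treg-treated recipients gave 0.303% (21 of 6921 reads) in JL019-1, 0.0276% in JL019-2 and no read in both JL027 libraries (limits 0.0280% and 0.0246%). Day 6 libraries lay below both donor libraries throughout, with a mean difference of -0.314 percentage points (two-sided exact permutation test, p = 0.0256, the smallest possible, adjusted 0.229).

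Treg held the least at day 0, with 24 of 13648 reads (0.176%) and 16 of 15457 reads (0.104%). On day 6 their libraries had 17, 2 and 1 NKT reads (0.0732%, 0.00781% and 0.00297%). The groups did not overlap, yet 2 against 3 libraries cannot give a p below 0.200, which is the value the exact permutation test returned.

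Between the arms of day 6 the NKT share differed little beside its fall from day 0. CD4 and CD8 allogeneic libraries lay below all syngeneic libraries of the same cell type (differences of -0.708 and -0.0403 percentage points, exact permutation p = 0.0571 for each, the smallest possible, adjusted 0.229). The CD4 Treg-treated libraries also lay below the syngeneic ones (-0.705 points, exact permutation p = 0.0571, adjusted 0.229). Most of both CD4 differences came from JL019-2: without it they were -0.0525 and -0.0493 points. Treg-treated and allogeneic recipients overlapped in CD4 cells (difference 0.00324 points, exact permutation p = 0.571) and in CD8 cells (0.0810 points, p = 0.429, and 0.00742 points without CD8 Treg-treated JL019-1). CD8 cells of Treg-treated recipients overlapped with syngeneic ones (0.0406 points, exact permutation p = 0.914, and -0.0329 to 0.0682 points with 1 library left out). In 11 pairs of CD8 and CD4 libraries with the same arm, prefix and number, 4 had a higher share in CD8 cells, 5 a lower one and the other two had none in either (exact sign-flip permutation p = 0.629).

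The segments themselves remained in use with other partners. TRAV11 joined to other J genes made up 0.507% and 0.660% of TRA reads in CD4 donor cells, 0.273 to 0.685% in allogeneic, 0.232 to 1.40% in Treg-treated and 0.665 to 2.66% in syngeneic recipients. TRAJ18 joined to other V genes was at 2.65% and 2.69% at day 0, and at 1.64 to 2.22%, 1.05 to 1.77% and 1.87 to 2.77% in the same arms. For TRAV11 the day 6 ranges thus overlapped the donor level in allogeneic and Treg-treated recipients and lay above it in syngeneic ones. For TRAJ18 they lay mostly below the donor level. In the donor CD4 cells the pair was 14.1 and 13.8 times as frequent as the product of its segments' shares, and in CD8 donor cells 18.1 and 15.1 times. TRAV11 provided 56.6% of the TRAJ18 reads of CD4 donor cells, first of 22 V genes, and 0.424% in allogeneic recipients, where it was the 18th of 24. Over all 31 libraries the V genes most often joined to TRAJ18 were TRAV8D-2 (18.9% of its reads), TRAV5D-4 (16.9%) and TRAV4 (11.9%).

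The junctions of the NKT chains were dominated by 1 sequence where NKT reads were frequent. The CDR3 is the loop encoded across the V to J joint, and 95.9% of NKT reads had a CDR3 of 15 residues, within a range of 13 to 17. Of 138 distinct CDR3s, the CDR3 found in the most libraries occurred in 13 of them and carried 1523 of the 1965 NKT reads (77.5%). Of the 1523 reads, 1359 came from the CD4 donor libraries and CD4 syngeneic JL019-2, and in the other 24 libraries of day 6 it made up 27 of 125 NKT reads (21.6%). It was never seen with another V or J gene. A further 63 CDR3s with 302 reads (15.4%) differed from it at 1 residue, most often at residue 4 (118 reads) and residue 5 (48 reads), counted from its first residue. These residues lie near the V to J joint, where nucleotides are added or lost. Sequencing or PCR errors can make such 1-residue neighbours too, and their part was not tested.

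That CDR3 was the most frequent alpha clonotype of both CD4 donor libraries, with 528 reads (82.8% of NKT reads) in JL019 and 589 (83.0%) in JL027. It also ranked first in the CD4 syngeneic library JL019-2, with 242 reads (82.0%), and seventh in both CD8 donor libraries, with 61 and 55 reads (77.2% and 70.5%). The Treg donor libraries held 9 and 12 reads of it. On day 6 it was found in the other CD4 syngeneic libraries (2 and 17 reads), in the 3 CD8 syngeneic libraries (2, 1 and 2 reads) and in 1 CD4 Treg-treated library (3 reads). None of the 4 CD4 allogeneic, 4 CD8 allogeneic, 4 CD8 Treg-treated and 3 Treg day 6 libraries held a read of it.

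The few NKT reads of those libraries therefore carried other junctions. In the CD8 Treg-treated library JL019-1 a different CDR3 made up 90.5% of its 21 NKT reads, and in the Treg day 6 library JL019-1 another made up 70.6% of 17. A V and J pair alone does not define an NKT cell, and counted by the most widespread CDR3, the CD8 Treg-treated group had no NKT chain at all.

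**Figure D2:**
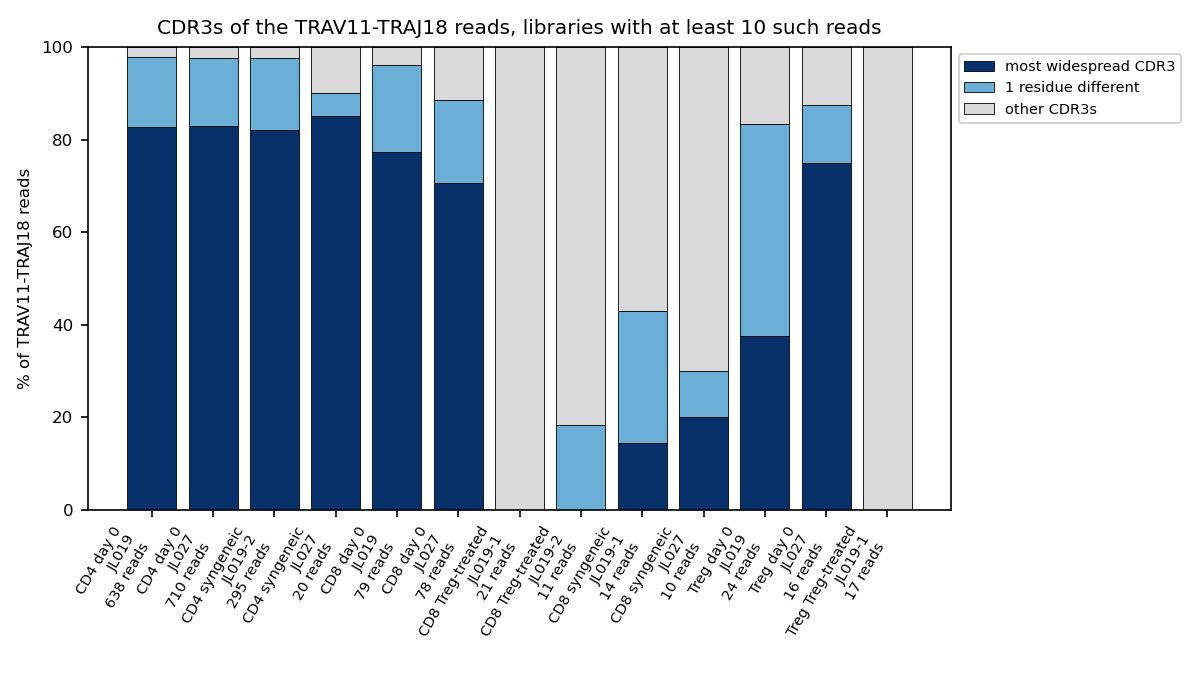
Make-up of the NKT chain reads in each library with at least 10 of them, stacked in percent of those reads: the CDR3 found in the most libraries, CDR3s that differ from it at 1 residue, and all others. The most widespread NKT CDR3 makes up 82.8% and 83.0% in the CD4 donor libraries and is absent from the CD8 Treg-treated library JL019-1.

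Counted by V and J gene alone, MAIT chains were rarer than NKT chains in donor CD4 and CD8 cells, but had more reads than NKT chains in 19 of the 31 libraries (fewer in 11). A V and J pair alone does not define a MAIT cell either, and only 33.0% of these reads carried the most widespread MAIT CDR3. The counts therefore do not compare numbers of MAIT and NKT cells. The MAIT shares showed no common direction from day 0 to day 6. CD4 donor cells had 0.160% (29 reads) and 0.223% (46 reads). CD4 cells of allogeneic recipients had 0.00958%, 0.0787%, 0.301% (52 reads) and 0.0442%, and those of Treg-treated recipients 0%, 0.0274%, 0% and 0.0315%. Syngeneic recipients gave 0%, 0.206% and 0.194%. Day 0 and day 6 overlapped (difference -0.110 points, two-sided exact permutation p = 0.205, adjusted 0.513, and -0.123 points with p = 0.152 without the syngeneic library JL019-2), and Treg-treated minus allogeneic recipients was -0.0937 points with overlap (exact permutation p = 0.114, adjusted 0.381), or -0.0295 points without CD4 allogeneic JL027-1.

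In CD8 cells the donor shares were 0.0834% and 0.133%. Allogeneic libraries ranged from 0.0150% to 0.304% and syngeneic ones from 0.0522% to 0.129%. The Treg-treated libraries had 0%, 0% and 0.0246%, and a single high value of 2.36% in JL019-1 (163 of 6921 reads, 2.02 to 2.74%). In that library 90.8% of the MAIT reads carried one CDR3, which no other library held, and the most widespread MAIT CDR3 had no read. The difference from day 0 was 0.177 points (exact permutation p = 0.718, adjusted 0.897), and -0.0298 to 0.206 points with 1 library left out. Treg had 0.0293% and 0.149% at day 0 and 0.310%, 0.0429% and 0.330% on day 6 (difference 0.139 points, exact permutation p = 0.400). All 10 MAIT comparisons had overlapping groups, with adjusted p from 0.381 to 0.971.

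The MAIT junctions were also less uniform. The most widespread CDR3, of 12 residues, occurred in 17 libraries but carried only 258 of 783 MAIT reads (33.0%). Of 113 distinct MAIT CDR3s, 98 were found in 1 library and only the most widespread was found in 5 or more. That sequence also appeared with another V or J gene in 74 reads, which the NKT sequence did not. Over all 31 libraries the V genes most often joined to TRAJ33 were TRAV19 (13.7% of its reads), TRAV5D-4 (10.7%) and TRAV7-1 (10.3%). The order differed between groups: TRAV5D-4 came first in CD4 donor cells (14.4%) and TRAV8D-2 in CD8 donor cells (15.7%).

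Zbtb16 (ENSMUSG00000066687, GRCm38.p6 chr9:48651797-48836225) followed the NKT chain in CD4 cells. Its scaled RNA value was 99.8 and 93.9 in the CD4 donor libraries (mean 96.9 ± 4.22 SD, n = 2). It was 11.1, 4.62, 4.49 and 2.37 in allogeneic and 1.79, 1.86, 4.73 and 10.5 in Treg-treated recipients. Syngeneic recipients gave 2.49, 4.05 and, in JL019-2, 25.4. All CD4 day 6 libraries were at 11.1 or below apart from JL019-2, the library that also had the high NKT share.

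Differences were fitted with limma on log2(value + 1), which understates the change of low genes, and p-values were adjusted over all 16741 genes of a contrast. Relative to day 0, Zbtb16 fell by 4.04 on the log2 scale in CD4 allogeneic libraries (SE 0.96, limma adjusted p = 0.0024), where 9.61% of all genes were called lower at adjusted p under 0.05. It fell by 4.35 in Treg-treated recipients (SE 0.96, limma adjusted p = 0.00077, 18.9% of genes lower) and by 3.66 in syngeneic ones (SE 1.01, limma adjusted p = 0.0156, 3.13% lower). In these 3 contrasts, which share the same 2 donor libraries, it was the 146th, 113th and 51st most reduced of 16741 genes. The groups did not overlap, and the values stayed apart under each prefix: 99.8 against 1.79 to 25.4 (n = 6) in JL019 and 93.9 against 2.37 to 10.5 (n = 5) in JL027. The call in syngeneic recipients was lost without CD4 day 0 JL019 (adjusted p = 0.116), CD4 day 0 JL027 (0.111) or CD4 syngeneic JL019-1 (0.0553), and with only the compared libraries in the fit (0.193). Without CD4 syngeneic JL019-2 the change there was -4.54 (limma adjusted p = 0.0041).

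In CD8 cells Zbtb16 started lower, at 20.9 and 20.4. It was 6.53, 14.6, 6.25 and 4.11 in allogeneic, 10.7, 0.936, 9.99 and 14.0 in Treg-treated, and 3.05, 0 and 0 in syngeneic recipients. Every day 6 library was below both donor libraries, and the syngeneic ones were at 3.05 or below, a range that also held 1 Treg-treated library (JL019-2). The change passed the test in syngeneic recipients (log2 change -3.76, SE 1.01, limma adjusted p = 0.0096), where 11.3% of genes were lower, but not without CD8 day 0 JL019 (adjusted p = 0.0879). In allogeneic recipients it was -1.41 (SE 0.96, limma adjusted p = 0.274, 14.2% of genes lower) and in Treg-treated recipients -1.47 (SE 0.96, limma adjusted p = 0.227, 18.3% lower). With 1 library left out these ranged from -1.73 to -1.19 and from -1.78 to -0.80.

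Treg had low values that overlapped between days: 9.51 and 4.2 at day 0 and 0.728, 8.44 and 26.7 on day 6. The log2 difference was 0.05 (SE 1.01, limma adjusted p = 0.982, with 4.89% of genes lower and 8.43% higher). The 26.7 in Treg day 6 JL027 was the 3rd highest of all 31 libraries, while the NKT share there was 0.00297% of reads.

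**Figure D3:**
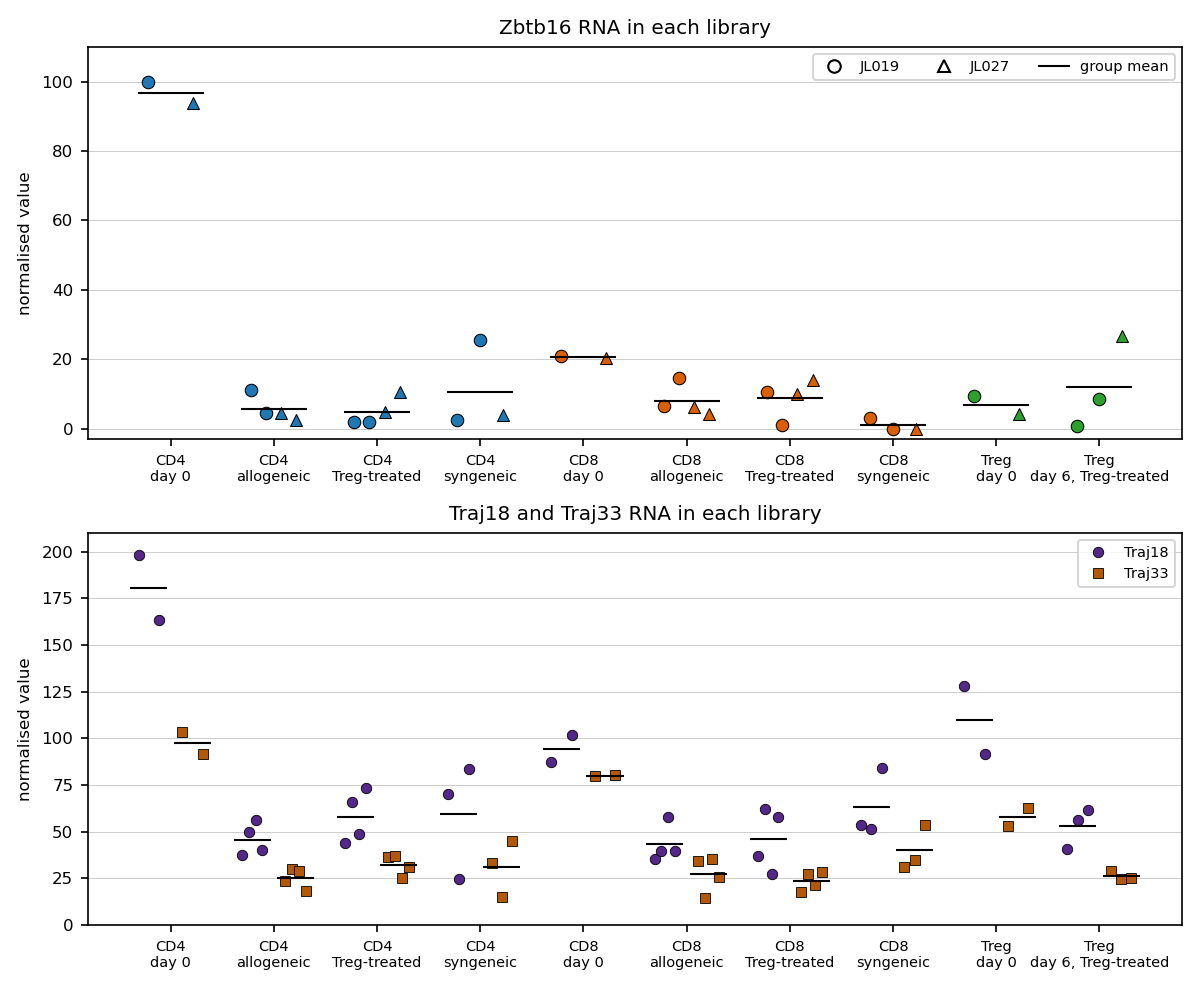
Scaled RNA values of Zbtb16 (upper panel) and of Traj18 and Traj33 (lower panel) on linear axes, with 1 symbol per library and a line at each group mean. The 2 CD4 donor libraries stand at 99.8 and 93.9 for Zbtb16, above every day 6 library, and Traj18 and Traj33 are also highest at day 0 in each cell type.

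Whether the cell types differed in their fall was tested after these changes had been seen. The CD4 change minus the CD8 change was -2.62 on the log2 scale in allogeneic recipients (SE 1.36, limma adjusted p = 0.688, 0.962% of genes called in either direction). It was -2.88 in Treg-treated ones (SE 1.36, limma adjusted p = 0.427, 1.37% called) and 0.10 in syngeneic ones (SE 1.43, adjusted p = 0.986, 3.63% called). The CD4 change minus the Treg change in Treg-treated recipients was -4.41 (SE 1.40, limma adjusted p = 0.0645, 4.71% called), with an adjusted p of 0.0342 by limma without the CD4 syngeneic library JL019-2 (9.80% called). None of the 4 differences passed with all libraries. The estimate for CD4 cells and Treg was the same without that library, which is in none of the groups compared, and the SE fell to 1.31.

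In the main fit a single Zbtb16 contrast among the arms of day 6 passed the test. CD8 allogeneic libraries were above CD8 syngeneic ones by 2.35 (SE 0.85, limma adjusted p = 0.0483, 21.1% of genes called in either direction), with all 4 values above all 3. The limma call was lost in 6 of the 7 fits that left out one of its libraries (each of the 7 except CD8 syngeneic JL019-1), with adjusted p between 0.0270 and 0.191. It was also lost with the prefix as a block (2.32, limma adjusted p = 0.0567) and under median centring (2.30, adjusted p = 0.0551). CD8 Treg-treated libraries were above syngeneic ones by 2.29 (SE 0.85, limma adjusted p = 0.0611, 18.2% of genes called) with overlap. This call depended on the fit: the limma adjusted p ran from 0.0102, when 0.1 instead of 1 was added before the log, to 0.199. It also passed without CD4 syngeneic JL019-2.

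The other contrasts between arms were small. Treg-treated minus allogeneic was -0.31 in CD4 cells (limma adjusted p = 0.815, 22.2% of genes called) and -0.06 in CD8 cells (adjusted p = 0.982, 0.0657% called). In CD4 cells allogeneic minus syngeneic was -0.38 (limma adjusted p = 0.839, 14.6% of genes called) and Treg-treated minus syngeneic was -0.69 (adjusted p = 0.615, 16.7% called). Without CD4 syngeneic JL019-2 both turned, to 0.50 (limma adjusted p = 0.853) and 0.19 (adjusted p = 0.904). These intervals are wide, and a p above the threshold does not show equal levels.

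Between cell types the order at day 0 was CD4, then CD8, then Treg, with no overlap between neighbours, and Treg and CD8 cells were not compared by a test. CD8 minus CD4 was -2.18 (SE 1.11, limma adjusted p = 0.470, 3.32% of genes called) and Treg minus CD4 was -3.73 (SE 1.11, limma adjusted p = 0.0575, 3.89% called). With only the compared libraries in the fit both passed (limma adjusted p = 0.0143 and 0.00537). Treg minus CD4 also passed with the recipient as a block and with CD4 syngeneic JL019-2 left out. On day 6 CD8 minus CD4 was 0.45 in allogeneic (limma adjusted p = 0.835, 6.15% called), 0.70 in Treg-treated (adjusted p = 0.628, 9.61% called) and -2.28 in syngeneic recipients (adjusted p = 0.102, 12.0% called), or -1.40 without CD4 syngeneic JL019-2 (adjusted p = 0.359). Treg minus CD4 in Treg-treated recipients was 0.68 (limma adjusted p = 0.566, 30.0% called).

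Set side by side, the highest NKT shares and the highest Zbtb16 values came largely from the same libraries. The 3 libraries with the highest NKT shares, both CD4 donor libraries and CD4 syngeneic JL019-2, held ranks 1, 2 and 4 for Zbtb16, and the CD8 donor libraries, 4th and 5th by NKT share, were 5th and 6th. The library in 3rd place for Zbtb16, Treg day 6 JL027, was 23rd by NKT share. No single correlation is given because these libraries stand apart from the rest.

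**Figure D4:**
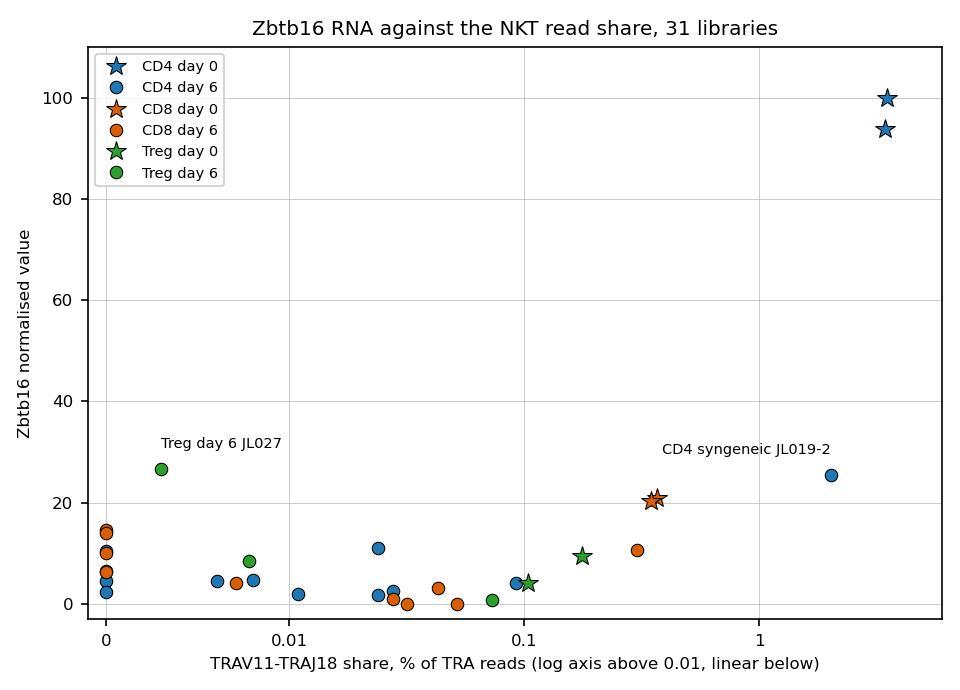
Scaled Zbtb16 RNA value (linear axis) against the NKT chain share of TRA reads in percent (axis logarithmic above 0.01 and linear below), with 1 symbol for each of 31 libraries. The 2 CD4 donor libraries lie at the upper right (3.52% and 99.8, 3.44% and 93.9), CD4 syngeneic JL019-2 at 2.03% and 25.4, and Treg day 6 JL027 combines 0.00297% with 26.7.

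The 8 genes whose pattern over all libraries was most like that of Zbtb16 (Pearson r of log2 values over 31 libraries, among 15263 genes with a mean of at least 10) were led by Igha (r = 0.737), the constant region of antibody class A. They were followed by the histone gene H2bc21 (0.672), Igkv4-57 (0.666), Syne4 (0.635), Igkv4-59 (0.629), Igkv5-43 (0.626), Ighv10-1 (0.622) and Igkv6-25 (0.619). Of the 8, 6 were immunoglobulin genes, which B cells and plasma cells express. Without the CD4 donor libraries r was 0.613 for Igha and 0.60 for H2bc21 (n = 29), and among day 6 libraries 0.527 and 0.539 (n = 25). The lowest of the 8 was Igkv6-25, at 0.392 without the CD4 donor libraries and 0.239 among day 6 libraries. These libraries share their donors, arms and scaling, so the values are descriptions.

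Igha was 3697 and 7447 in CD4 donor cells, 16.6 to 45.4 in allogeneic and 8.33 to 47.7 in Treg-treated recipients, and 1.34, 1.45 and 3054 in syngeneic ones. The CD8 donor cells, in which Zbtb16 was much lower, had 3874 and 7009. The sum over the 4 measured of 5 B cell markers was 362 to 499 in CD4 donor cells, 158 to 240 in allogeneic, 143 to 303 in Treg-treated and 125 to 879 in syngeneic recipients, and 1548 to 2300 in CD8 donor cells. In CD4 allogeneic and Treg-treated recipients 2 of the 4 fell, in syngeneic ones 1 did, and none rose, where 9.61%, 18.9% and 3.13% of all genes fell. Without JL019-2 the syngeneic count was 2, where 1.45% of all genes fell. The syngeneic range reached above the donor values, and Pax5, a B cell factor, was 5.22 to 20.02 at day 0 and 5.05 to 27.5 in allogeneic recipients. These Pax5 values do not cover syngeneic recipients. Cd79a, a part of the B cell receptor, fell by 2.80 in allogeneic (limma adjusted p = 0.00083) and by 2.57 in Treg-treated recipients (adjusted p = 0.0013). The 1 marker that fell in CD4 syngeneic recipients was neither Cd79a (-1.64, limma adjusted p = 0.0850) nor Cd79b (-0.13, adjusted p = 0.901). In each CD8 contrast 3 of the 4 fell (medians -4.23, -4.47 and -4.42 in allogeneic, Treg-treated and syngeneic recipients), where 14.2%, 18.3% and 11.3% of all genes fell.

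Gamma-delta and NK markers, of lymphocytes that can carry PLZF, showed no common direction in CD4 cells. Trdc, the gamma-delta receptor constant region, was 364 and 377 in CD4 donor cells and 80.2 to 100.4 in allogeneic, 31.6 to 108 in Treg-treated and 124 to 236 in syngeneic recipients. It fell by 2.09 in allogeneic recipients (SE 0.55, limma adjusted p = 0.0060) and by 2.43 in Treg-treated ones (SE 0.55, limma adjusted p = 0.0010). It was the 1 of 4 measured gamma-delta markers (of 8 listed) that passed in either contrast, where 9.61% and 18.9% of all genes fell. The sum over these markers was 851 to 901 at day 0 and 743 to 1342 in allogeneic recipients. Klrb1c, which encodes the NK1.1 antigen carried by NK cells and many NKT cells of C57Bl6 mice, was 339 and 367 at day 0 and 129 to 159 in allogeneic recipients (log2 change -1.31, SE 0.69, limma adjusted p = 0.189). Of the 7 NK markers, Klrb1c among them, 2 rose in CD4 allogeneic recipients and 0 fell (median log2 change 0.46), where 14.4% of all genes rose and 9.61% fell. The 2 were Eomes (1.22, limma adjusted p = 0.0032) and Klri2 (2.91, adjusted p = 0.0039). In CD4 Treg-treated and syngeneic recipients Klrb1c was the 1 of 7 that fell, by 1.73 and 2.16 (limma adjusted p = 0.0450 and 0.0480), while 2 rose in each, where 22.2% and 9.90% of all genes rose and 18.9% and 3.13% fell. The syngeneic Klrb1c values were 27.3 and 35.8 in JL019-1 and JL027 but 477 in JL019-2, above both donor values, and without that library the change was -3.46 (limma adjusted p = 1.5e-05). The sum of 7 NK markers was 680 to 712 in CD4 donor cells and 726 to 869 in allogeneic recipients. Of the 4 measured markers of type 2 innate lymphoid cells (ILC2, of 5 listed), whose precursors carry PLZF, 2, 3 and 2 rose in the CD4 allogeneic, Treg-treated and syngeneic contrasts and 1, 0 and 0 fell, with medians of 3.06, 4.15 and 1.02 (1.12 in the last without JL019-2). Of all genes 14.4%, 22.2% and 9.90% rose in these contrasts and 9.61%, 18.9% and 3.13% fell. Il1rl1, the IL-33 receptor, which Treg and activated T cells also express, rose in all 3, by 4.89, 4.05 and 1.53 (limma adjusted p = 8.7e-10, 2.4e-08 and 0.0230). The part of these other cells in the Zbtb16 values was not tested.

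In the RNA table both joining segments were lower on day 6 than on day 0. Traj18 (ENSMUSG00000076911, GRCm38.p6 chr14:54200777-54200842) was 198 and 163 in CD4 donor cells and 24.8 to 83.4 in all CD4 libraries of day 6. Traj33 (ENSMUSG00000076896, GRCm38.p6 chr14:54185358-54185414) went from 104 and 91.7 to between 15.0 and 44.8. In CD8 cells Traj18 went from 87.2 and 102 to 27.4 to 84.4, and Traj33 from 79.8 and 80.2 to 14.3 to 53.7. Treg showed 128 and 91.7 against 40.5 to 61.7 for Traj18, and 53.0 and 62.5 against 24.7 to 28.9 for Traj33. Neither gene's day 0 and day 6 values overlapped in any cell type.

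In CD4 allogeneic, Treg-treated and syngeneic recipients Traj18 fell by 1.97, 1.65 and 1.75 (limma adjusted p = 0.00063, 0.0022 and 0.0064), and Traj33 by 1.94, 1.58 and 1.75 (limma adjusted p = 0.00056, 0.0026 and 0.0053). In CD8 allogeneic and Treg-treated recipients Traj18 fell by 1.13 and 1.09 (limma adjusted p = 0.0368 and 0.0367), and Traj33 by 1.59 and 1.74 (adjusted p = 0.0032 and 0.0012). Neither passed in CD8 syngeneic recipients (limma adjusted p = 0.300 and 0.0743) or in Treg (0.120 and 0.0857). Without CD4 day 0 JL019 the CD4 syngeneic calls were lost for Traj18 (limma adjusted p = 0.0943) and Traj33 (0.0751), as they were with only the compared libraries in the fit (0.282 and 0.263), and that of Traj18 also without CD4 syngeneic JL019-2 (0.0579), when Traj33 was at -1.31 (0.0465). The Traj18 calls in CD8 cells were lost without either CD8 donor library and under median centring, among others (limma adjusted p up to 0.151 in allogeneic and 0.154 in Treg-treated recipients). With CD4 syngeneic JL019-2 left out of all fits, both genes passed in Treg (limma adjusted p = 0.0480 for Traj18 and 0.0422 for Traj33), and Traj33 passed in CD8 syngeneic recipients (0.0418).

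Over all 46 measured Traj genes 13, 12 and 11 fell in the CD4 allogeneic, Treg-treated and syngeneic contrasts, where 9.61%, 18.9% and 3.13% of all genes fell. Without CD4 syngeneic JL019-2 only 1 of the 46 fell in the syngeneic contrast (1.45% of all genes). In the same CD8 contrasts 10, 9 and 3 fell, against 14.2%, 18.3% and 11.3% of all genes, so the CD8 syngeneic count was below the share of all genes and the Treg-treated one near it. In Treg 0 of the 46 fell (4.89% of all genes did), and 0 rose in any of the 7. The median change over the 46 was -1.01, -0.64 and -1.15 in CD4 cells of allogeneic, Treg-treated and syngeneic recipients. In CD8 cells of the same arms it was -0.75, -0.76 and -0.05, and in Treg -0.34. Among the 46, Traj18 ranked between the 4th and the 14th from the most reduced over these contrasts, and Traj33 between the 2nd and the 11th. The values pool every rearrangement of a segment and any unrearranged transcript, so they do not isolate the NKT or MAIT chain.

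Trav11 (ENSMUSG00000096615, GRCm38.p6 chr14:53519303-53519859) was 463 and 397 in CD4 donor cells. It was listed at 0, 0, 0.981 and 78.3 in CD4 allogeneic libraries, and was 60.2, 164, 55.2 and 136 in Treg-treated and 212, 77.3 and 69.7 in syngeneic ones. All 4 allogeneic values were below both donor values, and apart from JL027-2 they were also below all Treg-treated and syngeneic ones. The limma difference from day 0 was called in allogeneic recipients (adjusted p = 1.3e-05), as were those of allogeneic from Treg-treated (adjusted p = 0.0035) and from syngeneic recipients (adjusted p = 0.00047). With only the compared libraries in the fit, the last of these was lost (limma adjusted p = 0.0897) and Treg-treated minus day 0 passed (0.0126). No fold is given because 2 libraries are listed at 0. In the receptor reads TRAV11 with any J gene was present in the 2 libraries listed at 0, at 0.297% and 0.357% of TRA reads. Near-identical copies of the segment, Trav11n in the RNA table and Trav11d outside it, make the split of reads between them uncertain, and Trav11n itself stayed between 0.867 and 26.1 in all libraries. In the fit of all libraries the Treg-treated and syngeneic CD4 groups did not pass against day 0 (limma adjusted p = 0.0995 and 0.249).

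Trav1 (ENSMUSG00000076758, GRCm38.p6 chr14:52427967-52428876) showed no called change from day 0 in any cell type. It was 96.3 and 87.0 in CD4 donor cells and 26.1 to 96.8 on day 6. In CD8 cells it was 73.3 and 100.4 and then 55.2 to 178, and in Treg 63.4 and 61.3 and then 76.3 to 131. The limma adjusted p over the 7 contrasts ran from 0.234 to 0.935.

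Other genes known from innate-like T cells mostly did not fall with Zbtb16. Of a list of 43 genes of NKT and MAIT cells, 42 were measured, Zbtb16 among them. In CD4 allogeneic recipients 25 rose (14.4% of all genes did) and 6 fell (9.61% of all genes), with a median log2 change of 1.94 against -0.04 over all genes. In CD4 Treg-treated recipients 27 rose (22.2% of all genes) and 8 fell (18.9%), with a median of 1.80 against -0.09. In CD4 syngeneic recipients 9 rose (9.90%) and 6 fell (3.13%), with a median of -0.21 against -0.04, and these counts were 7 and 4 without the library JL019-2, where 6.48% of all genes rose and 1.45% fell. CD8 allogeneic and Treg-treated recipients had 21 (16.3%) and 22 (20.1%) risen and 5 (14.2%) and 8 (18.3%) fallen genes, with medians of 1.26 and 1.51 against -0.13 and -0.19 over all genes. In CD8 syngeneic recipients 14 rose (13.0%) and 13 fell (11.3%), with a median of 0.49 against -0.10. In Treg 17 rose (8.43%) and 6 fell (4.89%), with a median of 0.78 against -0.07. Conventional T cells express most of these genes when they are activated, so the list does not count NKT or MAIT cells. With only the compared libraries in the fit, 2 rose and 0 fell in CD4 syngeneic recipients (1.36% and 0.0478% of all genes), and 6 fell in CD8 syngeneic ones (6.42% of all genes). That fit kept the CD4 syngeneic rise of Csf2 (limma adjusted p = 0.0461) and not those of Il10, Il18rap (both 0.0614) and Nfil3 (0.344). In CD8 syngeneic recipients it lost Cd1d2 (0.0614), Klrb1b (0.0767) and Il10 (0.280), and in Treg Il10 (0.0539).

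Among its transcription factors Nfil3, a regulator of innate lymphoid cells, rose in all 7 contrasts of day 6 with day 0, by 2.08 to 3.95, but not in CD4 syngeneic recipients without JL019-2 (1.31, limma adjusted p = 0.0984). In CD4 cells it went from 112 to 130.0 at day 0 to 1480 to 2297 in allogeneic recipients. Tbx21, encoding T-bet, the factor of interferon-producing cells, rose in 6 of 7, by 1.90 to 2.97, and was at 0.36 in CD4 syngeneic recipients (limma adjusted p = 0.65).

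Of the 3 genes of antigen-presenting molecules 0 rose in any contrast. Cd1d1, the lipid-presenting molecule that selects NKT cells, fell in all 6 CD4 and CD8 contrasts by 1.19 to 2.02, from 2293 and 2386 in CD4 donor cells to 672 to 745 in allogeneic recipients. Its CD4 syngeneic change was -1.22 without JL019-2 (limma adjusted p = 0.0017), and it did not pass with only the compared libraries in the fit (-1.41, adjusted p = 0.123). It did not pass in Treg (-0.08, limma adjusted p = 0.89). Its neighbour Cd1d2 fell in 5 contrasts, by 2.95 to 4.36, and was -1.59 in CD4 syngeneic recipients (limma adjusted p = 0.25, and 0.52 without JL019-2). B cells express both CD1d genes, and in these 6 contrasts between 1 and 3 of the 4 B cell markers fell. Their part in these values was not tested. Cd1d2 was 37.1 and 48.8 in CD4 donor cells and 279 and 432 in Treg at day 0. Mr1, which presents metabolites to MAIT cells, passed in Treg-treated recipients, where it fell by 1.13 in CD4 cells (limma adjusted p = 0.0082) and 1.22 in CD8 cells (adjusted p = 0.0052). In CD4 cells it went from 421 and 498 to between 164 and 262.

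Of the signalling genes through which NKT cells are selected, Sh2d1a, the adaptor SAP, rose in 5 contrasts by 1.03 to 1.83. The receptor gene Slamf1 rose in 4, by 1.19 and 1.28 in CD4 and 2.92 and 3.10 in CD8 cells of allogeneic and Treg-treated recipients. Slamf6 passed in 1 contrast, CD4 Treg-treated (0.92, limma adjusted p = 0.012), and so did the kinase gene Fyn, in CD8 syngeneic recipients (1.25, adjusted p = 0.020).

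In CD4 allogeneic recipients 4 of 5 NK receptors and 6 of 8 cytokine receptors rose and 0 fell, where 14.4% of all genes rose and 9.61% fell. Klrc1, encoding NKG2A, rose in 6 of 7 contrasts, by 1.5 in Treg and by up to 5.38 and was 0.73 in CD4 syngeneic recipients (limma adjusted p = 0.13). Klrb1b, an inhibitory receptor, rose by 5.47 and 5.83 in CD8 allogeneic and Treg-treated recipients and fell by 2.93 in CD8 syngeneic ones. Il18rap, a chain of the IL-18 receptor, rose in all 7 by 1.24 to 4.17. Il12rb2, a chain of the IL-12 receptor, rose in 6 by 1.94 to 6.43, and was 0.23 in CD4 syngeneic recipients.

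The largest rise among the named genes was that of Csf2, an effector gene. Csf2, encoding GM-CSF, rose in all 7 by 3.36 to 9.70, from 1.69 and 5.64 in CD4 donor cells to 824 to 1529 in allogeneic recipients. Il10 also rose in all 7, and was listed at 0 in both CD8 donor libraries and at 187 to 252 in CD8 allogeneic ones. Without JL019-2 the CD4 syngeneic changes of Csf2, Il10 and Il18rap still passed (6.07, 3.89 and 1.53, limma adjusted p up to 0.0137). Of the chemokine receptors Cxcr3 rose in 6, by 1.18 to 2.08. Cxcr6, typical of liver NKT cells and of effector T cells, rose in 5 by 1.52 to 3.19 but fell by 1.08 in CD4 syngeneic recipients (limma adjusted p = 0.0052, -0.81 with adjusted p = 0.0468 without JL019-2, and 0.251 with only the compared libraries). Ccr6, the receptor for CCL20 and the other one in the list, fell in 4 contrasts and rose in 0. Its log2 changes there were -4.59 and -2.76 in CD4 allogeneic and Treg-treated, -3.65 in CD8 syngeneic and -3.27 in Treg cells. In CD4 cells it was 362 and 399 at day 0 and 6.30 to 42.3 in allogeneic recipients.

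**Figure D5:**
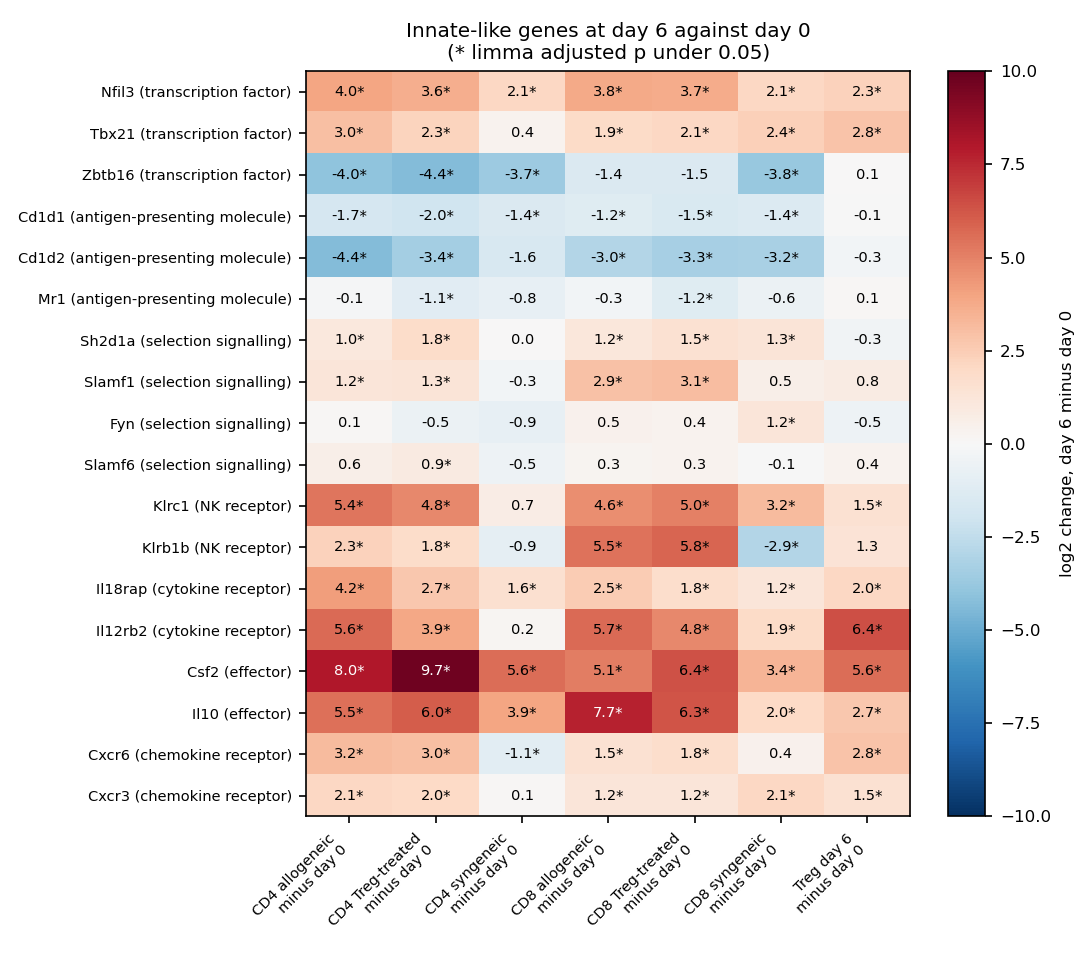
Heat map of the log2 change from day 0 of the named innate-like genes (vertical, with their roles) in the 7 contrasts (horizontal), red for higher and blue for lower, with an asterisk where the limma adjusted p was under 0.05. Zbtb16, Cd1d1 and Cd1d2 lie below 0 in the CD4 and CD8 contrasts, whereas Nfil3, Il18rap, Csf2 and Il10 lie above 0 in all 7.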

How the data were processed

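RNA was extracted by TRizol and column cleanup, turned into full-length cDNA with the SMARTer v4 kit and sequenced from Nextera XT libraries, and nested PCR on that cDNA gave the receptor libraries, per the labels' protocols. RNA was quantified with kallisto against GRCm38 (mm10), read quality was checked with FastQC 0.11.7 and values came from DESeq2, per the submitters' processing notes. The deposited RNA values are a signal: counts that the authors scaled between libraries, per the file headers. They are not whole multiples of a read (0.221% of non-zero values are whole within 0.001), so count tests could not be run. The receptor table holds the authors' deposited read counts per TRA sequence (122908 entries), with V and J gene and CDR3.

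From these, read shares and Wilson 95% intervals were computed with pandas 2.3.3, numpy 2.4.6 and scipy 1.17.1 (Python 3.11.15, figures with matplotlib 3.10.9), and each share comparison used a two-sided exact permutation test, Benjamini-Hochberg adjusted over 20. RNA was fitted in 1 model of 10 groups over 31 libraries with limma 3.58.1 (R 4.3.3, trend and robust) on log2(value + 1), adjusted over 16741 genes per contrast. A mean filter of 1 removed 0 genes. The limma fit was tested on simulated data, and the permutation tests on small made examples with known p-values. The members, lists and tests were chosen with earlier results of these data known. Named were the members, all antigen-presenting and selection genes, in each other role up to 2 genes called in the most of 7 day contrasts, the 8 genes most correlated with Zbtb16, the most widespread CDR3 and the 3 commonest V partners. Klrb1c, Eomes, Klri2, Trdc, Cd79a, Pax5, Il1rl1, Ccr6 and Igha's group values were added from the marker and similarity lists after their values were seen. Alternatives covered clonotype shares, the most widespread CDR3, a minimum of 2 reads, V families, ranks, pseudocount 0.1, a mean of at least 10, median centring, prefix and recipient blocks, only the groups compared and each library left out. For CD4 allogeneic JL027-1 the sum of its own entries (17270 reads) was used, not the deposited total of 30842. No reference sequence of these chains was used here.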

Additional observations from a re-analysis of the deposited data

Results flagged for a closer look

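In groups of 4 libraries, a value was listed when its gap to the nearest other exceeded 0.829 of the group's range (Dixon's 95% critical value). Chance lists about 1 in 20 groups, and 4 of the 32 groups tested met the rule. That rate is for continuous values, and where 3 of 4 libraries are at 0 reads a single read always meets the rule. The NKT share of CD8 Treg-treated JL019-1 was 0.303% of TRA reads, against 0.0276% in the next library. The MAIT share of the same library was 2.36%, against 0.0246% in the next, and it had the second lowest TRA depth of all libraries (6921 reads). In CD8 allogeneic JL027-2 the NKT share was 0.00709%, a single read, and the other three libraries had none. The Trav11 RNA value of CD4 allogeneic JL027-2 was 78.3, against 0.981 in JL027-1 and 0 in both JL019 libraries.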

How the results depend on the processing

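Groups of 2 to 4 libraries, unknown RNA depth and counts of 0 to 7 NKT reads in most day 6 libraries limit every comparison. Of 145 alternative values for the NKT share, 138 kept direction and side of the threshold, as did 129 of 145 for the MAIT share and 202 of 236 for Zbtb16. No alternative gave a share test an adjusted p below 0.229 (exact permutation), and groups this small leave little room to pass. For the shares these counts therefore speak mainly to direction. All alternatives kept the direction of the NKT fall in CD4, CD8 and Treg cells, and the call of Zbtb16 in CD4 allogeneic and Treg-treated recipients (adjusted p up to 0.0351 and 0.0144).

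The cause of the following changes was not tested. By distinct clonotypes, CD4 Treg-treated minus allogeneic was -0.000789 and CD8 Treg-treated minus syngeneic -0.00688 percentage points for NKT, and CD4 allogeneic minus syngeneic 0.0343 for MAIT. By the most widespread CDR3, CD8 Treg-treated minus syngeneic was -0.00681 (NKT) and -0.0261 (MAIT), CD8 day 6 minus day 0 was -0.0190, CD8 Treg-treated minus allogeneic -0.0985 and CD4 allogeneic minus syngeneic 0.0619 (all MAIT). By mean ranks, CD8 Treg-treated minus syngeneic was -1.75 for both chains, and for MAIT CD8 day 6 minus day 0 was -2.36 and CD8 Treg-treated minus allogeneic -1.50. With 1 library left out at a time, NKT differences ranged from -0.00118 to 0.00872 (CD4 Treg-treated minus allogeneic), -0.0329 to 0.0682 (CD8 Treg-treated minus syngeneic) and -0.203 to 0.0240 (CD8 minus CD4). MAIT differences ranged from -0.0298 to 0.206 (CD8 day 6 minus day 0), -0.0916 to 0.0114 (CD4 allogeneic minus syngeneic), -0.122 to 0.663 (CD8 Treg-treated minus allogeneic), -0.00856 to 0.0878 (CD8 allogeneic minus syngeneic), -0.0721 to 0.713 (CD8 Treg-treated minus syngeneic) and -0.0108 to 0.253 (CD8 minus CD4).

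For Zbtb16, a pseudocount of 0.1 gave -3.90 in CD4 syngeneic minus day 0 (limma adjusted p = 0.0720), -0.16 in Treg, 4.32 in CD8 Treg-treated minus syngeneic (0.0102) and -4.36 in syngeneic CD8 minus CD4 (0.0244). Median centring gave 0.064 in CD8 Treg-treated minus allogeneic and 2.30 in CD8 allogeneic minus syngeneic (limma adjusted p = 0.0551). Only the groups compared gave -3.66 in CD4 syngeneic minus day 0 (limma adjusted p = 0.193), -2.18 in CD8 minus CD4 (0.0143) and -3.73 in Treg minus CD4 (0.00537) at day 0. Leaving CD4 syngeneic JL019-2 out of all fits, chosen after seeing the data, gave 2.29 in CD8 Treg-treated minus syngeneic (limma adjusted p = 0.0395) and -3.73 in Treg minus CD4 at day 0 (0.0289).

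With 1 library left out, Zbtb16 ranged from -4.54 to -3.08 (CD4 syngeneic minus day 0), -4.44 to -3.43 (CD8 syngeneic minus day 0), -0.87 to 1.13 (Treg day 6 minus day 0), -0.74 to 0.027 and -0.37 to 0.61 (Treg-treated minus allogeneic in CD4 and CD8), -0.96 to 0.50 and 2.01 to 3.02 (allogeneic minus syngeneic in CD4 and CD8), -1.27 to 0.19 and 1.96 to 2.96 (Treg-treated minus syngeneic in CD4 and CD8) and -0.25 to 1.75 (Treg minus CD4 in Treg-treated recipients). The call in CD8 Treg-treated minus syngeneic appeared without CD8 Treg-treated JL019-2 or CD8 syngeneic JL019-1.

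Evidence that same-numbered libraries pair was mixed: of 15 pairs, 9 had deviations correlated above 0.1 (range -0.152 to 0.489) and 8 matched their own number best. Allogeneic pairs of CD4 and CD8 libraries ran from 0.159 to 0.470 and each matched its own number best. Syngeneic pairs ran from -0.152 to 0.156 and matched other numbers best. With the label prefix as a replicate block, Zbtb16 in CD8 allogeneic minus syngeneic was 2.32 (limma adjusted p = 0.0567), and with the recipient as a block Treg minus CD4 at day 0 was -3.73 (limma adjusted p = 0.0308). These blocks changed no other call.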
